A study of Danio rerio with 15 samples.

Results

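Transcription factors that build and maintain the liver were examined in irradiated zebrafish: the C/EBP paralogs cebpa, cebpb, cebpd and cebpg, the Foxa paralogs foxa1, foxa2 and foxa3, the nuclear receptor gene hnf4a and the homeobox gene prox1a. Every probe set of the array annotated to 1 of these 9 genes alone was taken, which gave 11 of the 15502 probe sets for zebrafish transcripts, for 9 of 8793 named genes. The genes cebpd and hnf4a had 2 probe sets each, and the other 7 genes had 1. Where a gene had 2, the one with the higher mean over all arrays represents it unless the other is named.

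Liver mRNA was measured on 15 arrays in 5 groups of 3, and each array read a pool of livers from 2 male fish of strain AB aged 16 weeks. The adult 0.1 Gy and adult 1.0 Gy groups (acute response) received whole-body γ-rays as adults and were examined 4 hours later. The embryo 0.1 Gy and embryo 1.0 Gy groups (long-term response) were irradiated at 24 hours post fertilization and examined at the same adult age. Control fish were not irradiated, belonged to the cohort that also gave the acute response fish, and serve both responses. All groups descended from 1 pool of embryos of 3 breeding pairs. Each long-term group was withdrawn from that pool and irradiated as 1 set of embryos, and the sources do not say how the groups were housed. Irradiation and any difference in rearing therefore cannot be told apart there, and the sources name no sham treatment of control fish.

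The C/EBP proteins are leucine zipper factors that bind DNA as dimers. In mammals, the alpha form sustains the metabolic genes of quiescent hepatocytes, whereas the beta and delta forms are associated with the acute phase response and liver injury. The Foxa factors open chromatin at liver enhancers, the nuclear receptor Hnf4a binds many hepatocyte genes, and Prox1 acts in hepatoblasts, lymphatic endothelium and pancreas.

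The labels of 4 arrays disagree with themselves. The titles, doses and timing entries of control replicates 2 and 3 say not irradiated while their source names say irradiated as adults, and for adult 0.1 Gy replicates 1 and 2 the source names leave irradiation out. Groups here follow the title, dose and timing, and results that rest on these arrays are given with and without them. Liver identity was plain on all arrays: over 27 hepatocyte product genes the mean log2 value was between 12.90 and 13.26, with fabp10a, the hepatocyte fatty acid binding protein, at 15.02. Digestive enzymes of the exocrine pancreas were also present, with a mean over 14 genes of 8.60 to 11.65 log2 across arrays and prss1 (trypsin) at 13.07.

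Of the 11 member probe sets, 10 varied enough over the arrays (interquartile range of at least 0.2 log2) to be tested, and the second hnf4a probe set did not. A probe set was called when the Benjamini-Hochberg adjusted p values of both the limma F-test over the 5 groups and the comparison itself were under 0.05. In the acute response, 3 of 10 member probe sets were called lower (cebpa, prox1a and foxa3), where 25% of all tested probe sets were called lower, and 1 was called higher (cebpb), where 14.6% were. In the long-term response the same genes were called in the same directions, 3 lower against 13.7% of all tested probe sets and 1 higher against 7.56%. With 10 member probe sets, these counts are not read as a property of the members, and both responses share their 3 control arrays. At an unadjusted p under 0.05 there were 6 acute and 5 long-term member probe sets. The share of all tested probe sets at that threshold is not given here, so these counts describe the members only. The median member difference was 0.08 log2 in the acute and -0.05 log2 in the long-term response, beside 0.01 and 0.04 log2 over all tested probe sets.

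**Figure D1:**
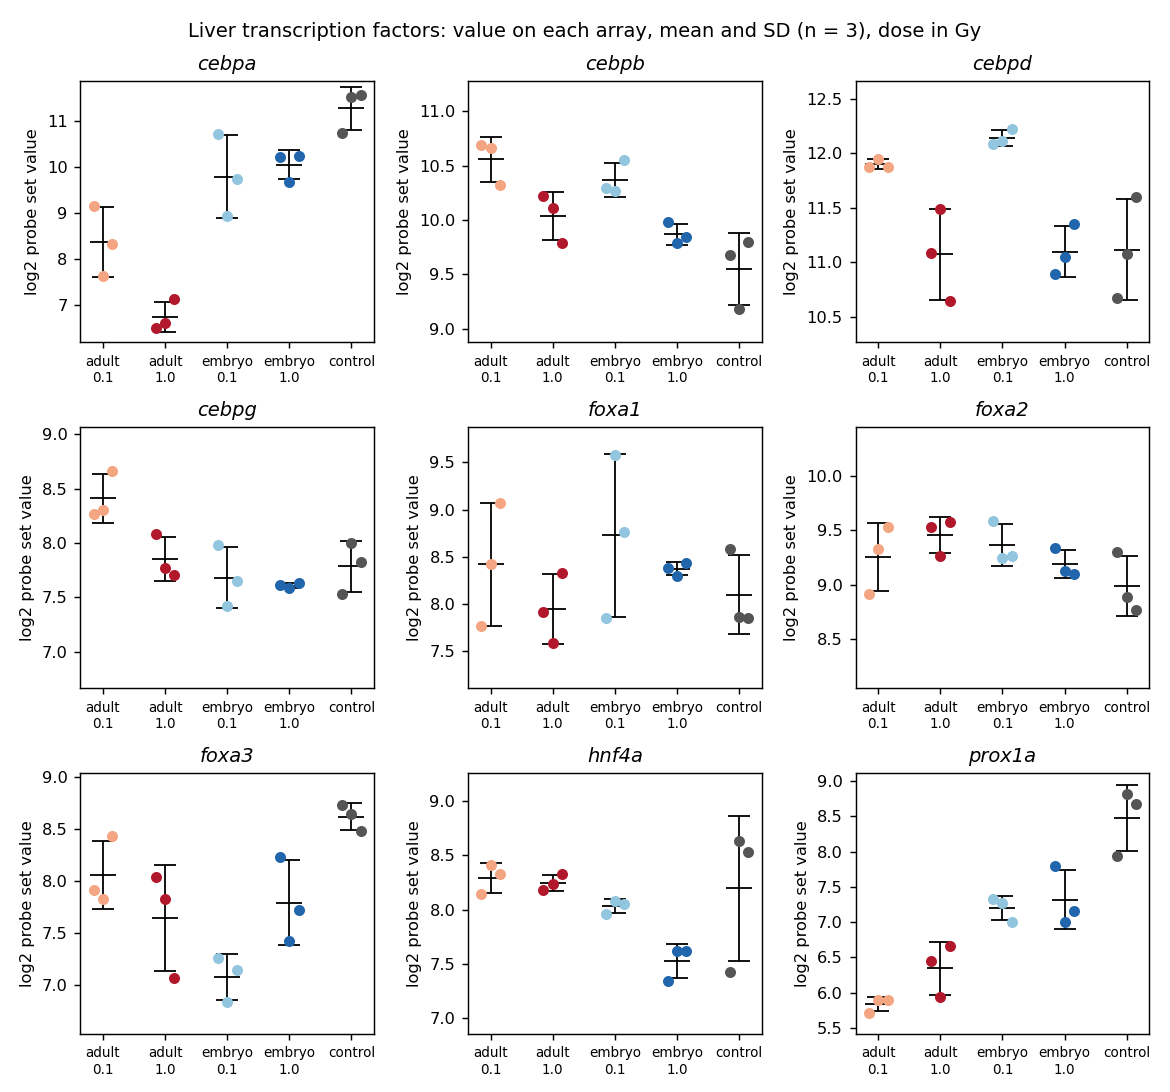
Log2 value of the representative probe set of each gene on each array (points), with the group mean and SD (bars, n = 3), for adult and embryo irradiated groups at 0.1 and 1.0 Gy and for controls; each panel has its own axis. All irradiated points of cebpa, prox1a and foxa3 lie below the control points, and cebpd is higher in both 0.1 Gy groups than in both 1.0 Gy groups.

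cebpa had the largest change of the members. Its log2 values were 9.15, 7.62 and 8.31 in adult 0.1 Gy livers, 6.49, 6.61 and 7.11 in adult 1.0 Gy livers, and 10.73, 11.52 and 11.56 in controls. Every acute array was below every control array, and the adult 1.0 Gy arrays were below all adult 0.1 Gy arrays. The acute difference was -3.72 ± 0.37 log2 (SE), a 13.2-fold lower level (limma adjusted p = 4.6e-06), and only 3 of the 8634 tested probe sets had a more negative one. In livers of fish irradiated as embryos the values were 10.70, 8.92 and 9.72 at 0.1 Gy and 10.22, 9.67 and 10.23 at 1.0 Gy. The highest of these, embryo 0.1 Gy replicate 1, was just under the lowest control. The long-term difference was -1.36 ± 0.37 log2, 2.57-fold lower (limma adjusted p = 0.017).

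prox1a was the other transcript far below control. It measured 5.72, 5.89 and 5.90 log2 in adult 0.1 Gy livers and 6.44, 5.93 and 6.66 in adult 1.0 Gy livers, against 7.94, 8.82 and 8.67 in controls. In embryo-irradiated livers it measured 7.33, 7.28 and 7.01 at 0.1 Gy and 7.80, 7.004 and 7.15 at 1.0 Gy. Acute arrays were lowest, long-term arrays intermediate and control arrays highest, with no overlap between these 3 sets. The difference from control was -2.38 ± 0.21 log2 in the acute response (5.22-fold lower, limma adjusted p = 2.4e-06) and -1.22 ± 0.21 log2 in the long-term response (2.32-fold lower, adjusted p = 0.0015). Among mature tissues prox1a is also a lymphatic endothelial gene. None of the 4 endothelial and lymphatic marker genes measured (kdrl, tie1, tek and flt4) varied enough to be tested, and their mean over genes was 5.64 to 5.97 log2 on irradiated arrays and 5.76 to 5.89 log2 on controls. In such bulk samples, fewer cells of a type and less RNA per cell cannot be told apart.

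foxa3 is a Foxa paralog that stays high in adult mammalian liver. Its log2 values were 7.92, 7.83 and 8.43 in adult 0.1 Gy livers, 8.04, 7.83 and 7.07 in adult 1.0 Gy livers, and 8.73, 8.64 and 8.48 in controls. In embryo 0.1 Gy livers they were 7.26, 6.84 and 7.15, and in embryo 1.0 Gy livers 8.23, 7.43 and 7.72. All irradiated arrays were below all controls, although adult 0.1 Gy replicate 3 missed the lowest control by a narrow margin. The acute difference was -0.76 ± 0.22 log2 (1.70-fold lower, limma adjusted p = 0.011) and the long-term difference -1.18 ± 0.22 log2 (2.27-fold lower, adjusted p = 0.002). Unlike cebpa and prox1a, foxa3 had the more negative estimate in the long-term response, but the comparison of the 2 responses did not pass (-0.42 ± 0.18 log2, adjusted p = 0.08). It passed in only 2 of 15 fits leaving out 1 array, without adult 1.0 Gy replicate 3 (-0.56 log2, adjusted p = 0.012) and without embryo 1.0 Gy replicate 1 (-0.53 log2, 0.032). Of 12 other alternatives it passed in 1, with array weights (-0.62 log2, 0.0076). The lowest acute value belongs to adult 1.0 Gy replicate 3, the array with the highest mean of the 11 muscle marker genes (8.11 log2, against 4.90 to 6.89 on the other arrays). Its mean of the pancreatic genes (11.65 log2) was also the highest, but close to that of embryo 0.1 Gy replicate 3 (11.59 log2). Without adult 1.0 Gy replicate 3, foxa3 was still called lower in both responses.

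These 3 genes also stood apart from controls array by array: all 6 irradiated arrays were below all 3 controls in each response. Of all tested probe sets, 23.4% did so in the acute response and 10.7% in the long-term response. No member had all irradiated arrays above the controls, where 18.8% of all tested probe sets did so in the acute and 8.3% in the long-term response.

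cebpb was the only member called higher. It measured 10.69, 10.66 and 10.32 log2 in adult 0.1 Gy livers and 10.22, 10.11 and 9.79 in adult 1.0 Gy livers, against 9.68, 9.18 and 9.80 in controls. In embryo-irradiated livers it measured 10.30, 10.26 and 10.55 at 0.1 Gy and 9.98, 9.79 and 9.84 at 1.0 Gy. In each response 1 array at 1.0 Gy fell marginally below the highest control, and the other 5 were above all controls. The acute difference was 0.75 ± 0.15 log2 (1.68-fold higher, limma adjusted p = 0.001) and the long-term difference 0.57 ± 0.15 log2 (1.48-fold higher, adjusted p = 0.014). The difference between the responses was -0.18 log2 (95% interval -0.43 to 0.08, adjusted p = 0.25).

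The other 5 genes were called in neither response. For cebpd the acute difference was 0.37 ± 0.19 log2 (limma adjusted p = 0.12) and the long-term difference 0.50 ± 0.19 log2 (0.075). For cebpg, which encodes a C/EBP protein without a transactivation domain in mammals, they were 0.35 ± 0.14 log2 (0.057) and -0.14 ± 0.14 log2 (0.5). foxa2, a Foxa paralog expressed in liver, gut and floor plate, was at 0.37 ± 0.15 log2 (0.053) and 0.29 ± 0.15 log2 (0.17). foxa1 varied widely within groups, from 7.85 to 9.58 log2 among the embryo 0.1 Gy arrays alone, and its intervals were wide: -0.63 to 0.80 log2 in the acute and -0.26 to 1.17 log2 in the long-term response.

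Some of these differences were close to the threshold. cebpd was called higher in both responses without control replicate 3 (0.61 log2, limma adjusted p = 0.024, in the acute and 0.75 log2, 0.025, in the long-term response) and without adult 1.0 Gy replicate 3 (0.48 log2, 0.041, and 0.50 log2, 0.049). cebpg was called higher in the acute response in 4 of 15 fits leaving out 1 array, namely adult 1.0 Gy replicate 3, control replicate 2 or embryo 0.1 Gy replicate 1 or 2, with differences of 0.35 to 0.45 log2. With array weights foxa2 was called higher in the acute (0.51 log2, 0.0019) and the long-term response (0.35 log2, 0.023). In the long-term response array weights also called cebpd (0.42 log2, 0.039) and foxa1 (0.77 log2, 0.031) higher. They called cebpg (-0.32 log2, 0.042) and hnf4a (-0.69 log2, 0.00091) lower there.

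hnf4a showed no acute difference that could be told from 0 (0.07 ± 0.20 log2, limma adjusted p = 0.77), and its long-term difference was -0.42 ± 0.20 log2 (adjusted p = 0.15). Its values were 8.14, 8.41 and 8.33 log2 in adult 0.1 Gy livers, 8.18, 8.24 and 8.33 in adult 1.0 Gy livers, 7.96, 8.08 and 8.05 in embryo 0.1 Gy livers, 7.35, 7.62 and 7.62 in embryo 1.0 Gy livers and 7.43, 8.63 and 8.53 in controls. Control replicate 1 lay far below the other controls and next to the embryo 1.0 Gy arrays. That array also had the highest mean of the 8 intestine marker genes (7.44 log2, against 5.33 to 6.26 on the others), whose part in the value was not tested. Without it, hnf4a was called lower in both responses, at -0.31 log2 in the acute (adjusted p = 0.032) and -0.80 log2 in the long-term response (adjusted p = 0.00018). Control replicate 1 is, however, the only control without conflicting labels. With control replicates 2 and 3 left out instead, hnf4a stood at 0.84 log2 in the acute and 0.35 log2 in the long-term response. The sign of its differences thus depended on the controls kept. The second hnf4a probe set was dim, with group means between 4.41 and 4.71 log2.

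**Figure D2:**
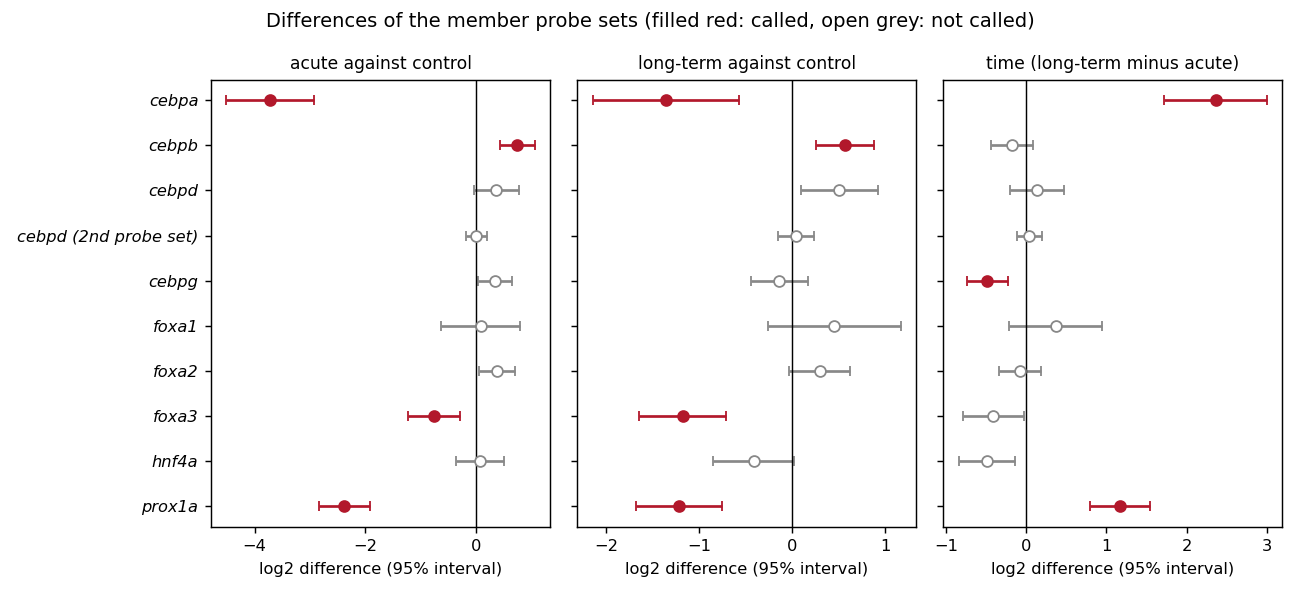
Log2 difference of each tested member probe set with its 95% interval (limma) in the acute response against control, the long-term response against control, and the long-term minus the acute response; each panel has its own axis. Filled red points passed both the F-test and the comparison: cebpa, prox1a and foxa3 lie below 0 and cebpb above 0 in both responses.

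The direct comparison of the long-term with the acute response called 2 member probe sets higher, against 20.6% of all tested probe sets, and 1 lower, against 12.7%. cebpa was higher in the long-term response by 2.36 ± 0.30 log2, 5.14-fold (limma adjusted p = 5.3e-05), and only 1 tested probe set had a larger difference. Its 6 long-term values had a median of 9.97 log2 (8.92 to 10.70) and its 6 acute values 7.37 log2 (6.49 to 9.15), so the ranges met through adult 0.1 Gy replicate 1. prox1a was higher by 1.17 ± 0.18 log2, 2.25-fold (adjusted p = 0.00018), with medians of 7.21 log2 (7.004 to 7.80) in the long-term and 5.92 log2 (5.72 to 6.66) in the acute response.

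Between the responses cebpg differed in the other direction, lower in embryo-irradiated than in adult-irradiated livers (-0.49 ± 0.12, limma adjusted p = 0.0052). Its values were 7.98, 7.42 and 7.65 log2 in embryo 0.1 Gy livers and 7.62, 7.58 and 7.63 in embryo 1.0 Gy livers, against 8.26, 8.30 and 8.67 in adult 0.1 Gy livers and 8.08, 7.77 and 7.71 in adult 1.0 Gy livers. The adult 0.1 Gy arrays were the highest of all 15, and the other groups overlapped with the controls (7.53, 7.999 and 7.83). hnf4a was also lower in the long-term response, without overlap between the 2 sets of 6 arrays (-0.49 ± 0.16 log2, adjusted p = 0.03), but did not pass the F-test over the 5 groups (adjusted p = 0.059). It was called in 2 of 15 fits leaving out 1 array and in 5 of 12 other alternatives. Among the latter were array weights (-0.47 log2, limma adjusted p = 0.0057) and a replicate block (-0.49 log2, 0.015).

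**Figure D3:**
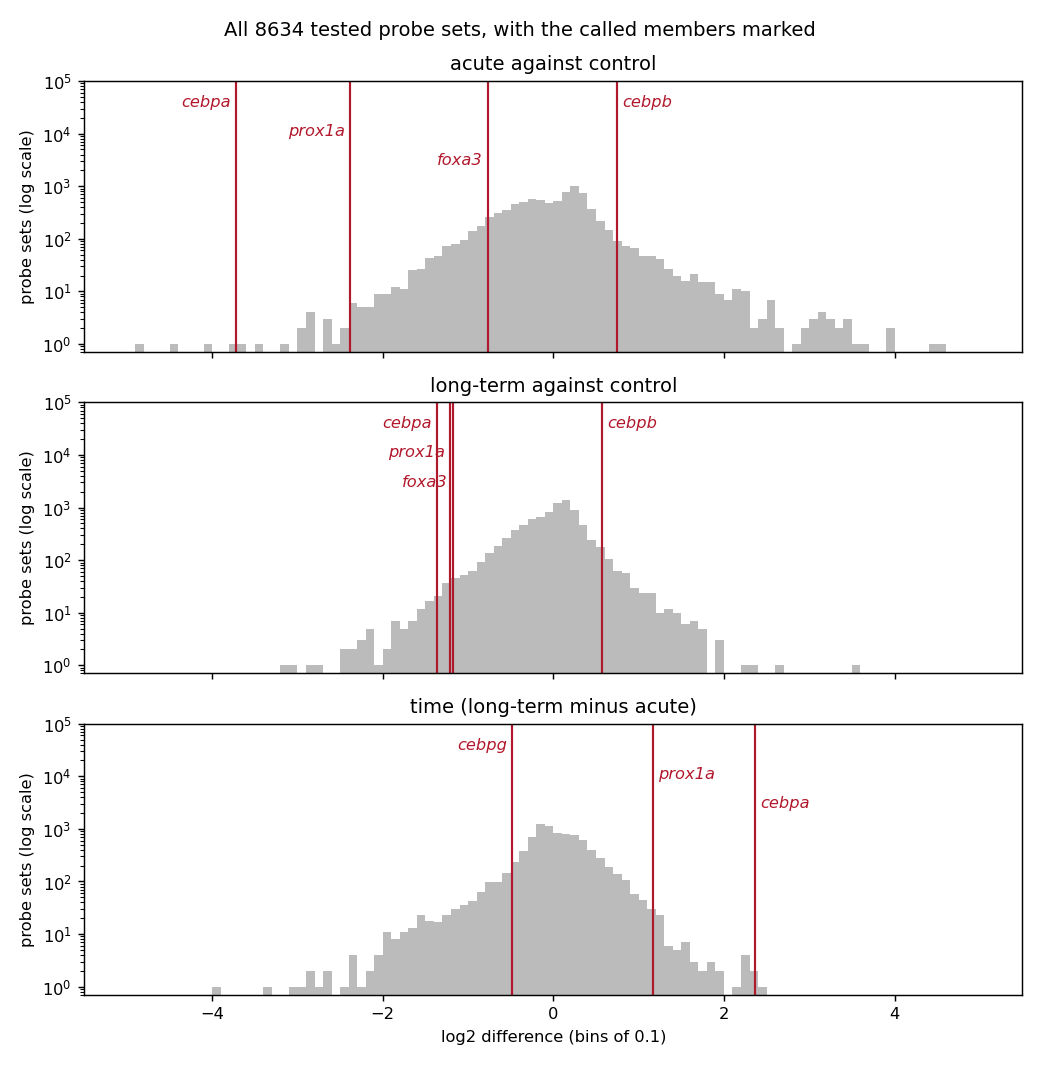
Number of tested probe sets (log axis) by log2 difference in bins of 0.1, for the acute response against control, the long-term response against control, and the long-term minus the acute response. Red lines mark the called members: cebpa stands at -3.72 in the lower tail of the acute response and at 2.36 in the upper tail of the long-term minus acute difference.

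cebpd was the member called between the doses. It measured 11.87, 11.95 and 11.88 log2 in adult 0.1 Gy livers and 12.08, 12.12 and 12.23 in embryo 0.1 Gy livers, beside 11.09, 11.48 and 10.64 in adult 1.0 Gy livers and 10.89, 11.04 and 11.35 in embryo 1.0 Gy livers. All 0.1 Gy arrays were above all 1.0 Gy arrays and above the controls (10.67, 11.07 and 11.60), and the 1.0 Gy arrays overlapped with the controls. Across both responses the 0.1 minus 1.0 Gy difference was 0.94 ± 0.16 log2, 1.92-fold (limma adjusted p = 0.027), and cebpd was the 1 of 10 member probe sets called higher at 0.1 Gy, against 0.29% of all tested probe sets. Its paralog cebpb also had all 0.1 Gy arrays above all 1.0 Gy arrays (0.51 ± 0.12 log2) but was not called (adjusted p = 0.078), except without control replicates 2 and 3 (0.047). Within the embryo groups cebpd was again the only member called (1.05 ± 0.22 log2, adjusted p = 0.038), where 0.405% of all tested probe sets were called higher. Leaving out single arrays ended the call across both responses in 7 of 15 fits and that within the embryo groups in 9 of 15, with differences of 0.83 to 1.04 log2 and 0.94 to 1.17 log2. The lost calls followed the removal of adult 0.1 Gy replicate 1 or 3, adult 1.0 Gy replicate 1, embryo 0.1 Gy replicate 2 or 3, or embryo 1.0 Gy replicate 1 or 2, and within the embryo groups also of embryo 0.1 Gy replicate 1 or embryo 1.0 Gy replicate 3. Without the 4 arrays with conflicting labels, 1 adult 0.1 Gy array was left. The cebpd difference across both responses was then 0.93 log2, and its call was not kept. The second cebpd probe set, close to the lowest value in the file (2.45 log2) at a mean of 3.32 log2, had no overlap between the doses either (0.34 ± 0.07 log2, limma adjusted p = 0.059 with all arrays).

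Within the adult groups no member probe set was called, and 0.0811% of all tested probe sets were called in either direction. At an unadjusted p under 0.05 there were 5 member probe sets, a count given without the share of all tested probe sets and not read further. cebpa had the largest member difference there, higher at 0.1 than at 1.0 Gy by 1.63 ± 0.42 log2 without overlap (limma adjusted p = 0.14), followed by cebpd (0.83 ± 0.22 log2, 0.16), cebpg (0.56 ± 0.17 log2, 0.2) and cebpb (0.52 ± 0.17 log2, 0.25). Adult 0.1 Gy replicates 1 and 2 have conflicting labels, so comparisons within the adult groups rest largely on them. Adult 0.1 Gy replicate 3 alone read 8.31 log2 for cebpa, 11.88 for cebpd, 8.67 for cebpg and 10.32 for cebpb. Each of these values was above all adult 1.0 Gy arrays. Counting overlap alone, 6 of 10 member probe sets had no overlap between the adult doses, against 18.8% of all tested probe sets, and 5 of 10 between the embryo doses, against 19.6%. Both counts include the 2 cebpd probe sets, of which the second is dim, and are not read as a property of the members. In the adult groups cebpa, cebpb, cebpg and both cebpd probe sets were higher and prox1a was lower at 0.1 Gy. In the embryo groups cebpb, both cebpd probe sets and hnf4a were higher and foxa3 was lower at 0.1 Gy. The interaction of time and dose, taken as the embryo dose difference less the adult one, divided by 2, called no member probe set, where 0.707% of all tested probe sets were called. Its estimates were -0.94 ± 0.30 log2 for cebpa and -0.56 ± 0.18 log2 for foxa3 (limma adjusted p = 0.18 each). An unadjusted p under 0.05 was found for 2 member probe sets, again without the share of all tested probe sets.

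The C/EBP paralogs were then compared with each other. On each array the log2 value of 1 paralog was subtracted from that of another, and these differences were compared between the 6 irradiated and 3 control arrays with a two-sided exact permutation test over the arrays. Of the 84 splits the smallest p possible is 0.0238. There were 18 comparisons, 6 C/EBP and 3 Foxa pairs in each response, and p values were adjusted over the 18. Since the probe sets bind with different strength, only the change of a difference is interpreted. Pairs that share a paralog reuse its values, and all comparisons use the same 3 controls, so they are not independent. The adjusted p of a comparison at the smallest p depends on how many others reach it too.

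cebpa parted from each of its paralogs in both responses, mostly through its own fall given above, so these shifts are not separate results. The cebpa minus cebpb difference lay between -3.73 and -1.54 log2 on acute arrays and between 1.04 and 2.34 log2 on controls, a shift of -4.47 log2 (exact p = 0.0238, adjusted 0.0429). The shift against cebpd was -4.09 log2 and that against cebpg -4.07 log2, with the same exact p and no overlap. In the long-term response the shifts of cebpa were -1.93 log2 against cebpb, -1.86 log2 against cebpd and -1.22 log2 against cebpg (exact p = 0.0238, adjusted 0.0429 each). The genes cebpa and cebpg are neighbours on a chromosome with no other gene starting between them in RefSeq (GRCz12tu). In the acute response cebpa stood at -3.72 log2 and cebpg, not called, at 0.35 log2, and in the long-term response cebpa stood at -1.36 log2 and cebpg, not called, at -0.14 log2.

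The other C/EBP pairs moved less. In the long-term response cebpb shifted above cebpg by 0.71 log2 without overlap (2.20 to 2.90 log2 on irradiated and 1.18 to 2.15 log2 on control arrays, exact p = 0.0238, adjusted 0.0429). That shift came mostly from the rise of cebpb given above and is not a separate result. The shifts of cebpb against cebpd were 0.38 log2 in the acute and 0.06 log2 in the long-term response, those of cebpd against cebpg 0.02 and 0.64 log2, and that of cebpb against cebpg 0.40 log2 in the acute response, with exact p values from 0.143 to 0.952. With 3 controls these tests have little power, and a like response is not shown.

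**Figure D4:**
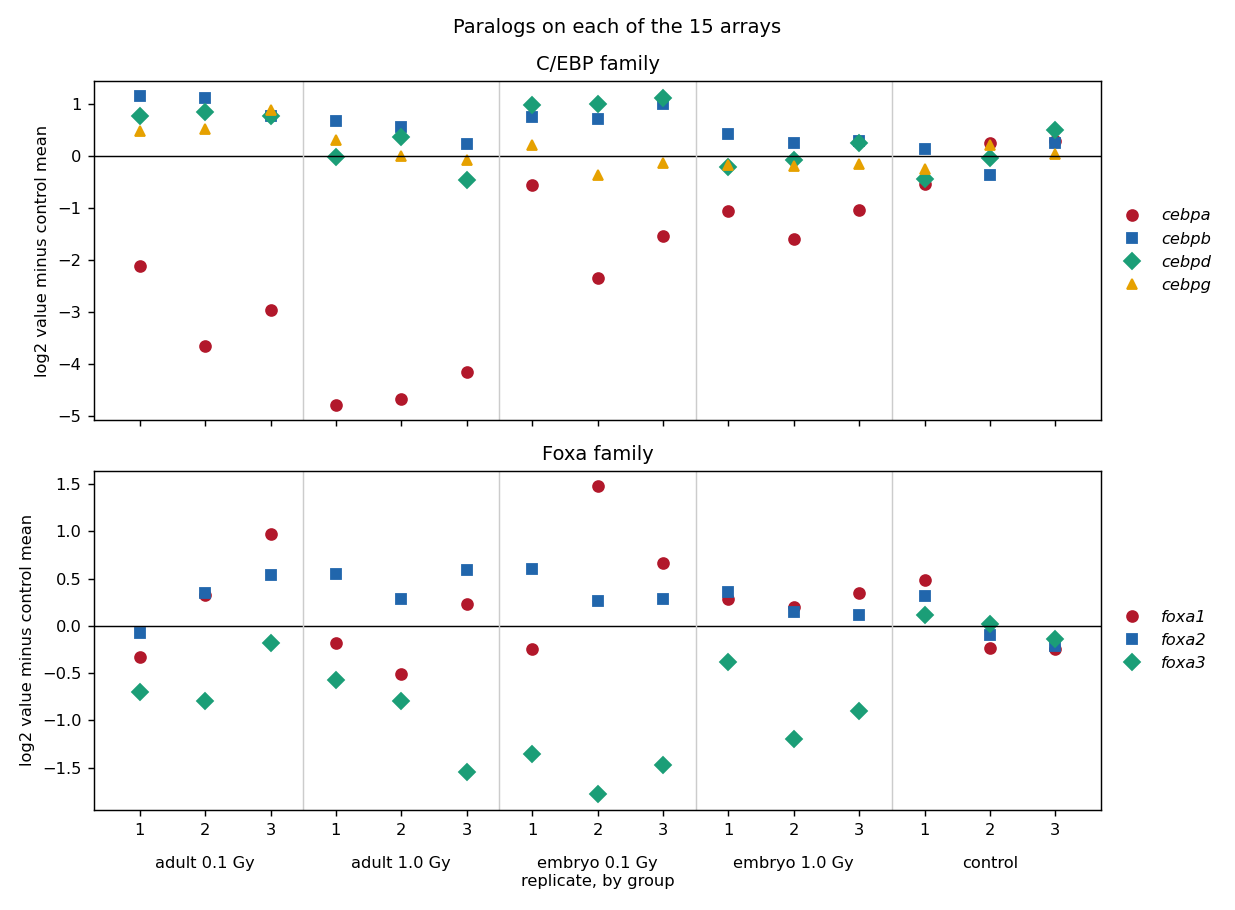
Log2 value of each C/EBP paralog (upper panel) and each Foxa paralog (lower panel) on each of the 15 arrays, minus the mean of its 3 control arrays; grey lines divide the groups. cebpa lies below the other C/EBP paralogs on all 12 irradiated arrays and foxa3 below foxa1 and foxa2 on all 12.

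Among the Foxa paralogs, foxa3 parted from the others, mostly through its own fall given above, so these shifts are not separate results. The foxa2 minus foxa3 difference was 0.995 to 2.502 log2 on acute arrays, 1.11 to 2.41 log2 on long-term arrays and 0.24 to 0.56 log2 on controls. The shifts were 1.14 log2 in the acute and 1.47 log2 in the long-term response (exact p = 0.0238, adjusted 0.0429 each). foxa1 shifted above foxa3 by 1.63 log2 in the long-term response without overlap (exact p = 0.0238, adjusted 0.0429). In the acute response the shift of 0.85 log2 came with overlap (exact p = 0.0476, adjusted 0.0779). foxa1 and foxa2 did not separate, with shifts of -0.29 log2 in the acute and 0.16 log2 in the long-term response (exact p = 0.381 and 0.643).

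The 5 groups ranked differently from gene to gene. For cebpa the order ran from adult 1.0 Gy (mean 6.73 log2) over adult 0.1 Gy (8.36), embryo 0.1 Gy (9.78) and embryo 1.0 Gy (10.04) to control (11.27), and the embryo groups overlapped with each other and the lower of them with adult 0.1 Gy. For prox1a it ran from adult 0.1 Gy (5.84 log2) over adult 1.0 Gy (6.35), embryo 0.1 Gy (7.20) and embryo 1.0 Gy (7.32) to control (8.48), with overlap only between the embryo groups among neighbours. For foxa3 the lowest was embryo 0.1 Gy (7.08 log2), and the irradiated groups overlapped with their neighbours up to the gap below the control (8.62). For foxa1 and foxa2 every neighbouring pair of groups overlapped.

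The result for the 4 arrays with conflicting labels follows. Without them, 1 control and 1 adult 0.1 Gy array remained, and the lone array of each was taken to vary like the other groups. cebpa (-3.20 log2, limma adjusted p = 0.0042) and prox1a (-1.82 log2, 0.0063) were then still called in the acute response, while cebpb (0.50 log2, 0.12) and foxa3 (-0.69 log2, 0.25) were not, and cebpg (0.73 log2, 0.048) and hnf4a (0.86 log2, 0.007) were called higher. In the long-term response no member was called without these arrays, or without control replicates 2 and 3 alone: cebpa stood at -0.82, prox1a at -0.68, foxa3 at -1.29 and cebpb at 0.44 log2, with the same signs as before. With 1 control left, the loss of replication and the values of the removed arrays cannot be told apart. prox1a and foxa3 kept their long-term calls in all 15 fits leaving out 1 array. Leaving out control replicate 2 alone ended the long-term calls of cebpa (-1.23 log2, adjusted p = 0.087) and cebpb (0.38 log2, 0.11), and leaving out control replicate 3 alone ended that of cebpa (-1.22 log2, 0.091). The shifts of cebpa against its paralogs without the 4 arrays were -4.20 to -4.02 log2 in the acute and -1.76 to -0.93 log2 in the long-term response, and those of foxa2 against foxa3 were 1.07 and 1.28 log2. The long-term minus acute differences without the 4 arrays were 2.39 log2 for cebpa, 1.14 log2 for prox1a, -0.61 log2 for cebpg and -0.51 log2 for hnf4a, with the same signs as before.

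The genes whose values over the 15 arrays were most like those of a called member are given as a description, since any gene that separates the same groups scores high. Among 6458 tested probe sets of named genes, those nearest to cebpa were fam136a (Pearson r = 0.95), tmem135 (0.95) and lrrc17 (0.94). Nearest to prox1a were dr1, a repressor of transcription initiation (0.98), lipt1, a lipoyltransferase (0.97), and the chromatin remodeler chd2 (0.97). Nearest to cebpb were igfbp1a, a secreted binding protein of insulin-like growth factors (0.89), the kinase gene pim1 (0.87) and terf2ip (0.86). igfbp1a was 3.10 log2 above control in the acute and 1.94 log2 in the long-term response, a larger difference than that of cebpb itself. Nearest to cebpd were si:ch73-141c7.1 (0.92), the Myc paralog mycb (0.88) and the growth inhibitor btg2 (0.87), among 6457 probe sets. Nearest to foxa3 were the Wnt secretion factor wls (0.89), gpsm2 (0.86) and the translation factor eif4g2a (0.86), and nearest to cebpg were xiap, an inhibitor of caspases (0.94), si:ch73-335l21.4 (0.91) and snap29 (0.89).

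Further factor genes were taken from lists. Of 9 relatives and leucine zipper partners of the C/EBP proteins, all tested, atf4a, a mediator of the integrated stress response, was called lower in the acute (-0.64 ± 0.09 log2, limma adjusted p = 0.00011) and the long-term response (-0.28 ± 0.09 log2, 0.043). The stress gene atf3 was called lower in the acute response (-0.43 ± 0.16 log2, 0.04) and stood at 0.40 ± 0.16 log2 in the long-term response (0.09). No gene of this list was called higher in either response, and its median was -0.07 log2 in the acute and 0.03 log2 in the long-term response. Beside this, 25% of all tested probe sets were called lower and 14.6% higher in the acute response. In the long-term response 13.7% were called lower and 7.56% higher, so the counts of this list are not read further.

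Of 21 other liver transcription factor genes measured, 14 were tested. In the acute response 2 were called higher, where 14.6% of all tested probe sets were, and 3 lower, where 25% were. hnf4b, a paralog of hnf4a, was higher (1.29 ± 0.20 log2, limma adjusted p = 0.00014), as was klf6a, a zinc finger factor (0.52 ± 0.11 log2, 0.0019). The endodermal factor gata6 was lower (-1.28 ± 0.19 log2, 0.00014), and so were nr5a2, a nuclear receptor of bile acid metabolism (-0.91 ± 0.13 log2, 0.00011), and hnf4g (-0.43 ± 0.12 log2, 0.0089). In the long-term response none was called higher and 3 were called lower: gata6 (-0.89 ± 0.19 log2, 0.0054), nr5a2 (-0.74 ± 0.13 log2, 0.0017) and hhex, a homeobox gene of the liver bud (-0.50 ± 0.13 log2, 0.013). The long-term shares of all tested probe sets were 7.56% called higher and 13.7% called lower. With 14 tested genes, these counts are not read as a property of the list. The list median was -0.16 log2 in the acute and -0.17 log2 in the long-term response.

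Of 27 hepatocyte product genes measured, 15 varied too little to be tested, and of the other 12 only tat, a tyrosine catabolic enzyme, was called in either response. Among all tested probe sets 14.6% were called higher and 25% lower in the acute response, and 7.56% and 13.7% in the long-term response. The median of those 12 genes was -0.21 log2 in the acute and -0.10 log2 in the long-term response. tat was higher in the acute (1.03 ± 0.15 log2, limma adjusted p = 0.00011) and the long-term response (0.55 ± 0.15 log2, 0.018). Many of these transcripts were close to the upper end of the array scale, with fabp10a at 15.02, apoa2 at 14.98 and tfa (transferrin) at 14.46 log2.

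Of 8 genes for hypoxia-inducible factors and their partners or hydroxylases, hif1al, which encodes a relative of Hif1a, was called higher in the acute (4.40 ± 0.24 log2, limma adjusted p = 5e-08) and the long-term response (1.61 ± 0.24 log2, 0.00056). It measured 9.63 ± 0.24 log2 in adult 0.1 Gy, 9.18 ± 0.39 in adult 1.0 Gy, 6.47 ± 0.31 in embryo 0.1 Gy and 6.76 ± 0.15 in embryo 1.0 Gy livers and 5.00 ± 0.64 in controls (SD, n = 3 each). epas1a was also called higher in the acute response (0.87 ± 0.10 log2, 2.2e-05). In the long-term response the hydroxylase gene egln3 (-2.78 ± 0.72 log2, 0.013) and hif1ab (-0.87 ± 0.21 log2, 0.0084) were called lower. The shares of all tested probe sets called, given for the lists above, apply to this list too.

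Markers of other tissues that a dissected liver could hold were set beside these results. The shares of all tested probe sets called higher and lower were 14.6% and 25% in the acute response. They were 7.56% and 13.7% in the long-term response. No gene of the exocrine pancreas (14 tested), erythrocyte (6), muscle (11) or germ cell (3) lists was called in either response. The median difference of the muscle genes was nevertheless 0.83 log2 in the acute and 0.87 log2 in the long-term response, and that of the erythrocyte genes 0.52 and 0.25 log2. The muscle mean was 5.10 to 8.11 log2 on acute arrays, 5.06 to 6.89 log2 on long-term arrays and 4.90 to 5.28 log2 on controls, and all 3 embryo 1.0 Gy arrays were above all controls. The erythrocyte mean was 6.31 to 6.79 log2 on acute, 5.96 to 6.89 log2 on long-term and 5.84 to 6.34 log2 on control arrays. The part of either tissue in the members' differences was not tested. Of 4 intestine genes tested none was called in either response (median -1.12 log2 in the acute and -0.49 log2 in the long-term response, with control replicate 1 the highest array), and fabp2 was called higher in embryo-irradiated than in adult-irradiated livers (2.29 ± 0.77 log2, limma adjusted p = 0.03). Of 7 leukocyte genes tested, mpx (0.46 ± 0.14 log2, 0.013) and cd74a (0.65 ± 0.23 log2, 0.029) were called higher in the acute response and cd74a (0.84 ± 0.23 log2, 0.017) in the long-term response. Of 9 biliary and stellate genes tested, krt18a.1, a keratin gene, was called higher in the acute response (0.40 ± 0.10 log2, 0.0064). The median difference of the pancreatic genes was -0.65 log2 in the acute and 0.29 log2 in the long-term response. Between the responses (long-term minus acute) it was 0.94 log2. The pancreatic mean was 8.60 to 11.65 log2 on acute arrays, 9.40 to 11.59 log2 on long-term arrays and 9.60 to 11.01 log2 on controls. All 3 sets thus overlapped. The part of pancreatic tissue in the values of foxa1, foxa2, prox1a and hnf4a, which the pancreas also expresses, was not tested.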

How the data were processed

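Expression in liver was measured on GeneChip Zebrafish Genome Arrays. The authors checked array quality with affyPLM, applied quantile normalization and deposited log2 probe set values from the Robust Multiarray Average (RMA) method, versions not given in the sources used here. The file holds 15617 probe sets; 115 manufacturer controls were left out. Array medians were between 5.018 and 5.140 log2 and arrays correlated at 0.962 to 0.994. Gene names came from the platform annotation, updated through the gene table. After probe sets whose interquartile range was under 0.2 had been dropped, limma 3.58.1 (R 4.3.3) was fitted to the remaining 8634 (5 group means, moderated variances, Benjamini-Hochberg adjustment over all tested), following the study's methods. Paralog differences were tested with exact permutation in scipy 1.17.1. The limma step was tested on simulated data.

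Genes named are the members, the 3 tested genes most correlated with each called member, and up to 4 called genes of each list with the largest difference in each response; fabp2 and the genes given for their level were named after their values were seen. Members and lists were chosen with earlier results of these data known. Pools of a group were drawn from the same set of fish, so p values measure the spread between pools, and the number of arrays limits precision. Alternatives covered filters, normalization, array weights, a replicate block and leaving out arrays. The replicate numbers did not pair the samples: of 30 same-numbered pairs, 4 had deviations correlated over 0.1 (median -0.059). No sequences were used.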

Additional observations from a re-analysis of the deposited data

Results flagged for a closer look

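Members whose long-term and acute differences from control differed in limma were singled out. cebpa was 2.36 log2 higher in embryo-irradiated than in adult-irradiated livers, and the 2 sets of 6 arrays overlapped in 1 array each way. prox1a was 1.17 log2 higher in the long-term response, without overlap. cebpg differed by -0.49 log2, lower in the long-term response, with overlap. Groups of 3 arrays were too small for a test for outlying arrays.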

How the results depend on the processing

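The number of member probe sets called was 4 in the acute response, 4 in the long-term response, 3 between the responses, 1 for dose across both responses, 1 for dose within the embryo groups and 0 for dose within the adult groups and for the interaction. Array weights gave 9 in the long-term response, 5 between the responses and 2 for dose. Subtracting each array's median, or quantile normalizing again, gave 2 for dose. With a replicate block, dose within the embryo groups gave 0 (cebpd adjusted p = 0.059), and the counts were 4, 4, 4 and 1 for the acute, long-term, between-response and dose comparisons. Without the 4 arrays with conflicting labels the long-term and dose counts were 0, and without control replicates 2 and 3 they were 0 and 2. Leaving out 1 array at a time gave 4 to 6 in the acute response, 2 to 5 in the long-term response, 3 to 4 between the responses, 0 to 1 for dose and 0 to 2 for dose within the embryo groups. The cause of these changes was not tested. The share of all tested probe sets called under each setting is not given here, so these counts are not read as a property of the members.

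With the 4 arrays grouped as their source names read, 0 member probe sets were called in the acute, long-term, between-response, dose and embryo dose comparisons. How many of all tested probe sets were called under that grouping is not given here. The control group then held prox1a values of 7.94, 5.72 and 5.89 log2 and the adult 0.1 Gy group 8.82, 8.67 and 5.90. For cebpa they held 10.73, 9.15 and 7.62 log2, and 11.52, 11.56 and 8.31. Whether the titles or the source names are right was not tested. Signs then turned for cebpa in the long-term response (0.74 log2), for prox1a in the acute (0.55) and long-term response (0.74), for cebpb in the acute (-0.44) and long-term response (-0.23) and between them (0.22), and in the acute response for cebpd (-0.20), cebpg (-0.023) and foxa1 (-0.15). They also turned for the second cebpd probe set in the acute (-0.14) and long-term response (-0.057) and for foxa2 between the responses (0.019).

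Other changes of sign concerned differences that were not called. Without the 4 arrays, and without control replicates 2 and 3 alone, the long-term values were 0.12 log2 for cebpg, 0.35 for hnf4a, -0.031 for foxa1 and -0.019 for foxa2. The acute values were -0.070 and -0.40 log2 for foxa1, and -0.0013 and -0.018 for the second cebpd probe set. That probe set was at -0.047 in the acute and -0.014 in the long-term response after median subtraction and at -0.050 and -0.012 after a second quantile normalization, and array weights gave -0.22 for hnf4a in the acute response. Leaving out 1 array gave -0.023 to 0.022 (acute) and -0.0024 to 0.071 (between responses) for the second cebpd probe set, -0.31 to 0.29 for hnf4a and -0.076 to 0.33 for foxa1 in the acute response. Among paralog shifts, leaving out the 4 arrays gave -0.17 (cebpb against cebpd, acute), -0.10 (cebpb against cebpg, acute), -0.51 (cebpb against cebpd, long-term) and -0.012 (foxa1 against foxa2, long-term). Using the mean of all probe sets gave -0.16 for cebpd against cebpg in the acute response. Leaving out 1 array gave -0.11 to 0.24 for that pair, -0.10 to 0.35 for cebpb against cebpd and -0.053 to 0.36 for foxa1 against foxa2 in the long-term response.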
